A study of Mus musculus with 6 samples.

Results

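The zona pellucida genes Zp1, Zp2 and Zp3 were followed in polyadenylated RNA of mouse oocytes, as the 3 rows with these symbols among 54532 genes in the deposited tables. Both tables hold all 3, and all 3 passed the filter on low counts, which left 18868 genes. The AMH group has 3 libraries of oocytes from C57BL/6J mice given 300 ng of recombinant mouse anti-Müllerian hormone (AMH, produced in E. coli) once a day into the peritoneum, starting at 21 days of age. The control group has 3 libraries of C57BL/6J oocytes. Both groups are labelled as 6 to 7 weeks old. The labels leave out whether controls were injected, the number and stage of the pooled oocytes, any stripping of cumulus cells, and whether libraries come from different animals. The p-values therefore cover library-to-library spread, part or all of which can be technical. The title of the series names oocyte quality after AMH treatment as its question.

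The zona pellucida is the extracellular coat of the oocyte, through which sperm must pass. In the mouse it is made of ZP1, ZP2 and ZP3, which the growing oocyte itself secretes. ZP2 and ZP3 form the filaments of the coat, ZP1 crosslinks them, ZP2 carries the site that sperm recognise, and the protease ovastacin cuts ZP2 after fertilisation. FIGLA, an oocyte transcription factor of the basic helix-loop-helix class, is known in the mouse to act on all these genes through E-box sequences (CANNTG) in their promoters. Mouse Zp4 is a pseudogene.

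Of the members, Zp3 has a promoter in the RefSeq-based table (build GRCm38.p6), and its 250 bases before the transcription start are shown because it is where such E-boxes lie. They span chr5:135979855-135980104 on the plus strand, and capitals mark CANNTG and TATAA. Distances are counted from the RefSeq-based start at 135980105. In the positions given below the gene starts at 135980099, so the last printed bases lie within it.

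Zp3: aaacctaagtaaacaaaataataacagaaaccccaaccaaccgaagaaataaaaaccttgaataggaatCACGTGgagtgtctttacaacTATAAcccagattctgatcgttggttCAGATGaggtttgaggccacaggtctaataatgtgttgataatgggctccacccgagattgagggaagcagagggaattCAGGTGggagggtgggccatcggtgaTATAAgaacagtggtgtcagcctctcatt

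CANNTG, which reads the same on both strands in this degenerate form, was found at 3 places, as CACGTG beginning 181 bases before the start, CAGATG 134 bases before it and CAGGTG 55 bases before it. At least 1 CANNTG was present in 66.0% of 27025 promoters of the same length and at least 3 in 12.1%. CACGTG was found in 6.05% of them, and CAGGTG or its reverse complement CACCTG in 17.1%. TATAA or its reverse complement TTATA was found at 2 places, 160 and 29 bases before the start, and 23.5% of promoters held at least 1. These matches describe the sequence only.

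Zp1 (ENSMUSG00000024734) lies on chromosome 19, 10914287 to 10920632, minus strand, with 12 exons in its longest coding transcript. Zp2 (ENSMUSG00000030911) lies on chromosome 7, 120126772 to 120145291, minus strand, with 18 exons. Zp3 (ENSMUSG00000004948) lies on chromosome 5, 135980099 to 135988624, plus strand, with 8 exons. These positions are GRCm38 as the files give them and equal those of GENCODE M21, where 0 other genes overlap any of them on either strand. A search of each coding transcript against 141767 annotated transcripts, with exact seeds of 28 bases, found a match in another gene for Zp2 alone. That match was a stretch of 447 bases at 88.1% identity in the processed pseudogene Gm49596 (chromosome 16, 19631902 to 19632342).

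Every library was deep, with 66392859 to 69395450 counts in AMH libraries and 69997949 to 72109080 in control libraries. Each member had 3876 to 7793 counts in AMH libraries and 5841 to 23775 in control libraries, so counting error was 0.648 to 1.61% of a value, far below the spread between libraries. The libraries differed in other ways too. Summed CPM (counts per 1000000 counts, TMM-scaled) of an oocyte list of 33 genes without any zona gene was 31358.5, 30088 and 51101 in AMH 1, 2 and 3 and 61606, 64548 and 51978 in controls 1, 2 and 3. Summed CPM of 19 cumulus and granulosa markers, all of them detected, was 2705, 2415 and 2713 in AMH 1, 2 and 3 and 487, 291 and 2828 in controls 1, 2 and 3. Control 3 thus lay at the level of the AMH libraries for cumulus markers, and AMH 3 at that of control 3 for the oocyte list. Oviduct epithelium markers (9 genes) summed to 150 to 731 CPM in AMH libraries and 21.3 to 170 CPM in control libraries. All 9 had a higher mean in AMH libraries, and Krt8 and Krt18 were most of the sum in control 3 (80.0 and 64.0 CPM). Blood and immune markers (7 genes) summed to 90.5 to 356 CPM in AMH libraries and 5.0 to 27.9 CPM in control libraries. The globin genes Hba-a1 and Hbb-bs were most of the sum in AMH 1 (182.5 and 112.7 CPM). Ptprc alone among the 7 had a lower mean in AMH libraries (1.06 against 1.68 CPM). Theca and stroma markers (9 genes) summed to 941 to 2276 CPM in AMH libraries and 110 to 1199 CPM in control libraries. Most of that sum was Cyp11a1 (means of 1662 CPM in AMH and 616 CPM in control libraries). Cyp17a1 had 4 counts over all libraries, and Col1a2, Col3a1 and Pdgfra alone had lower means in AMH libraries. Endothelium markers (5 genes) summed to 105.5 to 178 CPM in AMH libraries and 183 to 223 CPM in control libraries. Most of that sum was Pecam1 (means of 109.6 CPM in AMH and 170 CPM in control libraries). Cdh5 alone among them had a higher mean in AMH libraries (2.11 against 0.754 CPM). Control 2 was the lowest library in the cumulus, oviduct, blood and theca lists and the highest in the oocyte and endothelium lists.

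All 3 zona transcripts had lower values in AMH oocytes than in control oocytes, at 0.47, 0.40 and 0.43 times the control mean FPKM for Zp1, Zp2 and Zp3, and 0 of them passed edgeR's quasi-likelihood test over all genes. FPKM is the authors' value per kilobase of gene and per 1000000 counts of an effective library size. In these bulk libraries a smaller share of oocyte RNA and less zona RNA per oocyte cannot be told apart. The summed cumulus markers were higher in all AMH libraries and control 3 than in controls 1 and 2, as given above. Within that list Cyp19a1, Nr5a2 and Kitl did not follow this order. Cyp19a1 had the reverse, with 27.7, 35.1 and 47.1 CPM in AMH 1, 2 and 3 and 59.3, 59.4 and 53.1 CPM in controls 1, 2 and 3. The part of cumulus cells in the zona differences was not tested.

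Zp1, the crosslinker of the coat, had 30.2, 32.1 and 50.4 FPKM in AMH 1, 2 and 3, against 69.2, 111 and 59.0 FPKM in controls 1, 2 and 3. Every AMH library lay below every control, with AMH 3 nearest to control 3. The means were 37.6 ± 11.2 FPKM in AMH and 79.8 ± 27.8 FPKM in control libraries (SD, n = 3 each). The edgeR log2 fold change was -1.10 ± 0.33 (SE; unadjusted p = 0.0130, edgeR adjusted p = 0.116).

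Zp2, the filament protein that sperm recognise, had 18.0, 18.3 and 26.9 FPKM in AMH 1, 2 and 3, against 38.6, 89.7 and 30.7 FPKM in controls 1, 2 and 3. Control 2 stood far above all other libraries, and the groups did not overlap. AMH libraries averaged 21.1 ± 5.05 FPKM and control libraries 53.0 ± 32.0 FPKM (SD, n = 3 each). Its log2 fold change was -1.34 ± 0.44 (SE; unadjusted p = 0.0190, edgeR adjusted p = 0.116).

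Zp3, the partner of ZP2 in the filaments, had 59.4, 60.1 and 84.4 FPKM in AMH 1, 2 and 3, against 123.5, 269 and 85.1 FPKM in controls 1, 2 and 3. AMH 3 was at 0.992 of control 3, a gap smaller than the counting error of 1.13% in either library. The mean was 68.0 ± 14.3 FPKM in AMH libraries and 159 ± 97.0 FPKM in control libraries (SD, n = 3 each), and the log2 fold change was -1.24 ± 0.44 (SE; unadjusted p = 0.0265, edgeR adjusted p = 0.118). By library size alone the groups overlapped for Zp3, where AMH 3 had 117 and control 3 had 112 CPM unscaled.

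**Figure D1:**
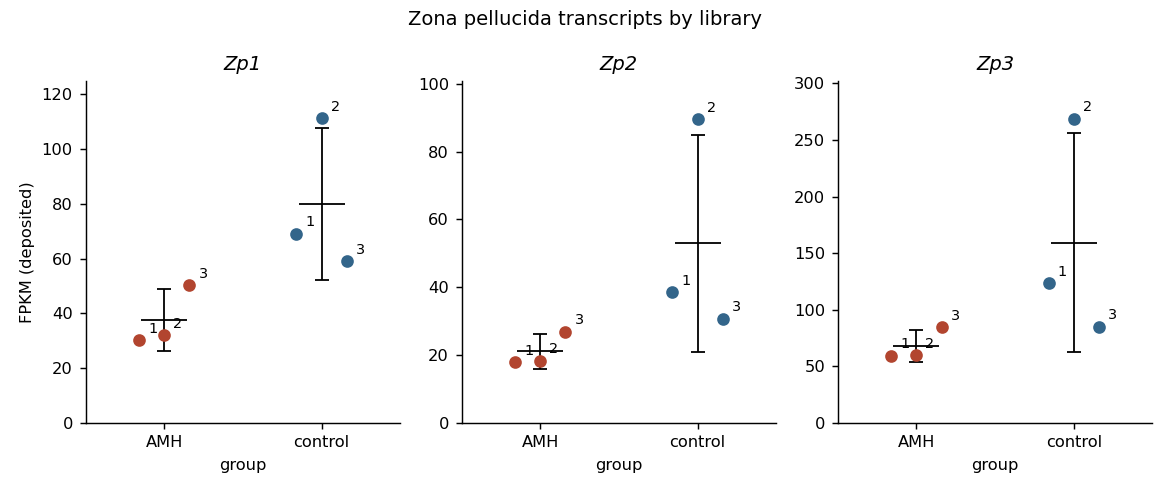
Deposited FPKM (vertical axis, from 0, a separate scale per gene) of Zp1, Zp2 and Zp3 in each AMH and control library, numbered by replicate; bars are the mean and SD of 3 libraries. Control 2 is the highest point in each panel, and AMH 3 lies close to control 3, most closely for Zp3 at 84.4 against 85.1 FPKM.

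Lower values of this kind were common. In 3 of 3 members every AMH library lay below every control on the TMM scale, as did 23.3% of all tested genes, and 3 of 3 had an unadjusted edgeR p under 0.05 with lower values, as did 17.3% of all genes. At an adjusted p under 0.05 edgeR called 0.0% of genes lower, with 0 calls in either direction, 3266 genes lower and 3814 higher at an unadjusted p under 0.05. limma-voom also called 0 genes. DESeq2 called 3 of 3 members lower (adjusted p = 0.0306 for Zp1, 0.0338 for Zp2 and 0.0455 for Zp3) among 7.78% of all genes. limma-voom with sample quality weights called 3 of 3 (adjusted p = 0.000781, 0.00380 and 0.00362) among 35.8% of all genes.

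The size of these differences depended on single libraries. Without control 2 the log2 fold changes were -0.79 ± 0.30 for Zp1, -0.74 ± 0.28 for Zp2 and -0.64 ± 0.28 for Zp3 (SE), with edgeR adjusted p = 0.186, 0.185 and 0.204, and the ratio of mean FPKM in AMH over control libraries was 0.587, 0.607 and 0.65. Without control 3, the control rich in cumulus markers, they were -1.27, -1.62 and -1.54, and 3 of 3 members passed (edgeR adjusted p = 0.0294, 0.0258 and 0.0248), as did 11.2% of all genes in that direction. Without AMH 3 they were -1.43, -1.62 and -1.49, and Zp1 came nearest to passing (edgeR adjusted p = 0.0559).

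**Figure D2:**
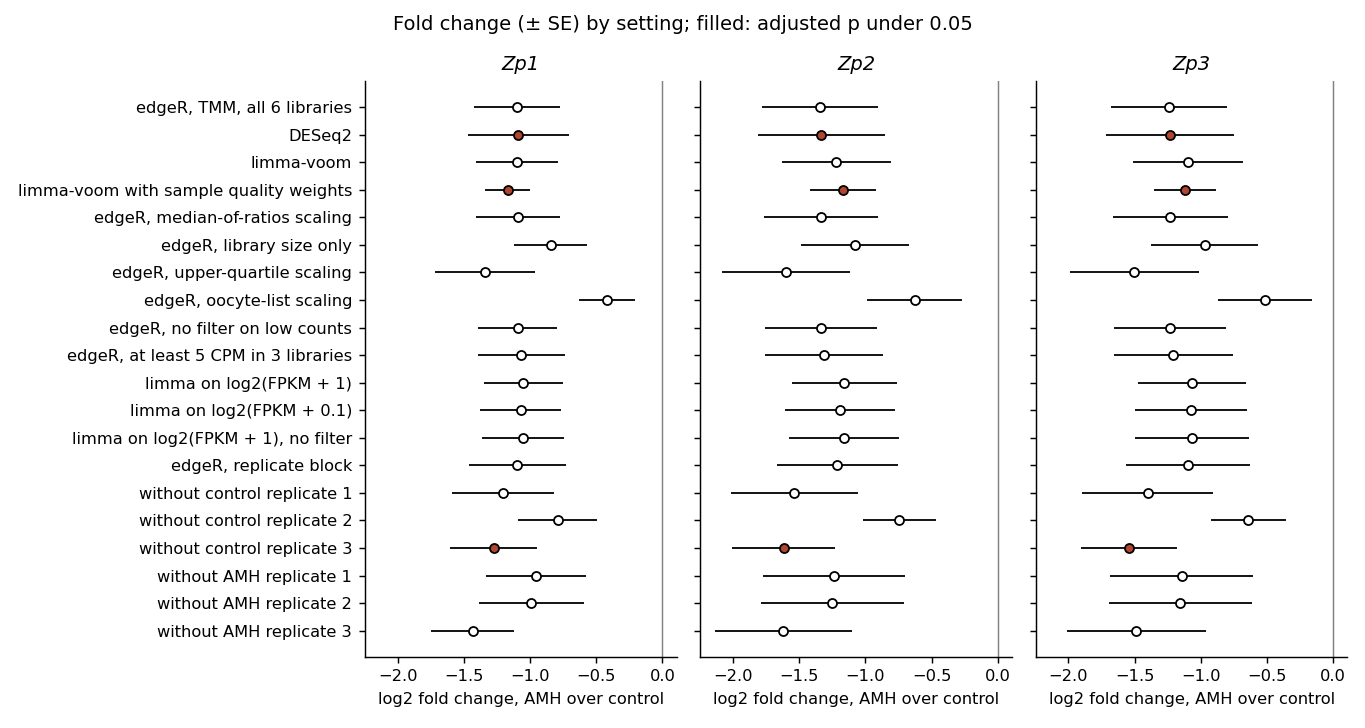
Log2 fold change of AMH over control (horizontal axis, points, with lines of 1 SE) for Zp1, Zp2 and Zp3 under each test, scaling, filter and left-out library; filled points have an adjusted p under 0.05. Values run from -1.62 (Zp2 without AMH 3) to -0.42 (Zp1 with oocyte-list scaling), and the filled points are those of DESeq2, limma-voom with quality weights, and edgeR without control 3.

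Set against other oocyte transcripts, the zona genes of AMH libraries lay near those of controls 1 and 3 and below those of control 2. Control 2 was set apart after its values were seen. Against all 3 controls the ratio of AMH to control means was 0.75 for Zp1, 0.65 for Zp2 and 0.70 for Zp3. The oocyte list is summed, so abundant genes such as Gdf9 (log2 fold change -0.65 with TMM) weigh most in it. Its members ran from -0.23 for Omt2b to -1.68 for Khdc3. For each 1000 counts of the oocyte list, Zp3 had 2.53, 2.68 and 2.33 counts in AMH 1, 2 and 3, against 2.74, 5.74 and 2.29 in controls 1, 2 and 3. The groups overlapped, and the AMH mean of 2.52 ± 0.179 (SD, n = 3) was 0.999 times the mean of controls 1 and 3. Zp2 had 1.58, 1.69 and 1.53 in AMH 1, 2 and 3, against 1.77, 3.94 and 1.70 in controls 1, 2 and 3. Its highest AMH library was 0.989 of its lowest control, and its AMH mean was 0.921 times that of controls 1 and 3. Zp1 had 1.93, 2.14 and 2.08 in AMH 1, 2 and 3, against 2.30, 3.56 and 2.38 in controls 1, 2 and 3, with no overlap and an AMH mean 0.878 times that of controls 1 and 3. Two-sided exact permutation tests over 3 against 3 libraries gave p = 0.5 for Zp3, 0.1 for Zp2 and 0.1 for Zp1 (adjusted over the 3 genes 0.5, 0.15 and 0.15), where 0.1 is the smallest p possible. With this scaling edgeR's log2 fold changes were -0.42 ± 0.21 for Zp1, -0.63 ± 0.36 for Zp2 and -0.51 ± 0.36 for Zp3 (SE; edgeR adjusted p = 0.197, 0.245 and 0.343), while the median of all tested genes was 0.72 against -0.01 with TMM.

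**Figure D3:**
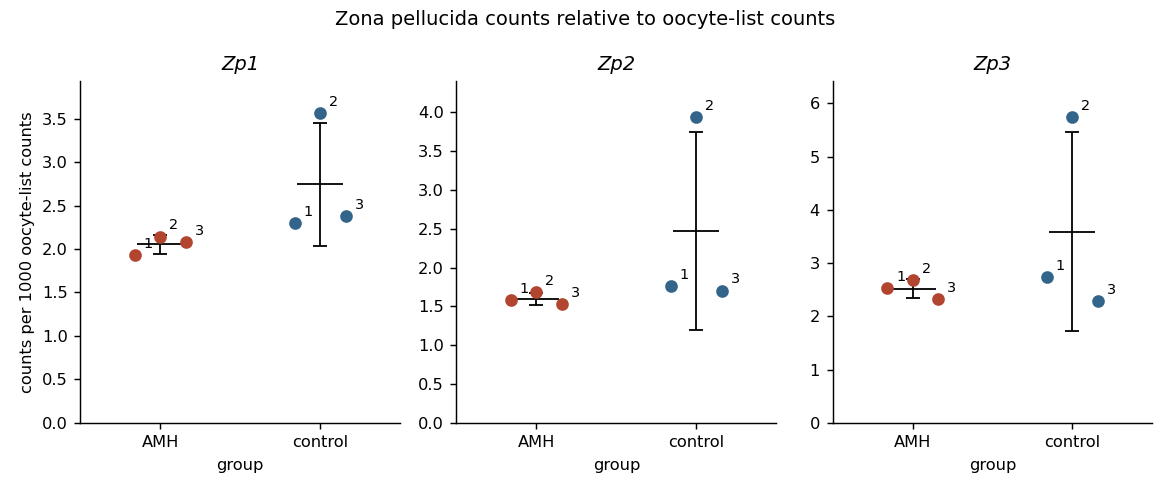
Counts of Zp1, Zp2 and Zp3 for each 1000 counts of the 33-gene oocyte list (vertical axis, from 0, a separate scale per gene) in each AMH and control library, numbered by replicate; bars are the mean and SD of 3 libraries. Apart from control 2, all libraries lie between 1.93 and 2.38 for Zp1, between 1.53 and 1.77 for Zp2 and between 2.29 and 2.74 for Zp3.

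Control 2 stood higher for the zona genes than for most of the oocyte list. Its CPM was 2.58 times the mean of controls 1 and 3 for Zp2, 2.57 times for Zp3 and 1.73 times for Zp1. Of 10637 genes that averaged 5 CPM or more, 18 had a ratio at least as high as Zp2, 19 as high as Zp3 and 121 as high as Zp1. These counts include the zona genes themselves. Control 2 was examined because its zona values stood out, so the ranks are a description and not a test. Across the 32 tested genes of the oocyte list the ratio ran from 0.741 to 4.2 with a median of 1.18, and 8 of them exceeded Zp1. The growth factors Gdf9 and Bmp15, which the oocyte sends to its follicle, had ratios of 1.12 and 1.17. Khdc3 (4.2) and Padi6 (2.21) had the highest ratios in the list, and Figla had 1.85. Khdc3 and Padi6 were picked here after their values were seen. The part of library make-up in this excess was not tested.

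The proportions of the zona transcripts to each other overlapped between the groups. Per length, Zp3 was the highest and Zp2 the lowest of the 3 genes in every library. Zp3 made up 55.2, 54.4 and 52.2% of the summed zona FPKM in AMH 1, 2 and 3, against 53.4, 57.2 and 48.7% in controls 1, 2 and 3. The share of Zp1 was 28.1, 29.0 and 31.2% in AMH libraries, against 29.9, 23.7 and 33.7% in controls, so that control 2 had the lowest Zp1 share and control 3 the highest. Zp2 took 16.6 to 16.7% in AMH libraries and 16.7 to 19.1% in control libraries. These shares do not depend on the scaling between libraries.

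**Figure D4:**
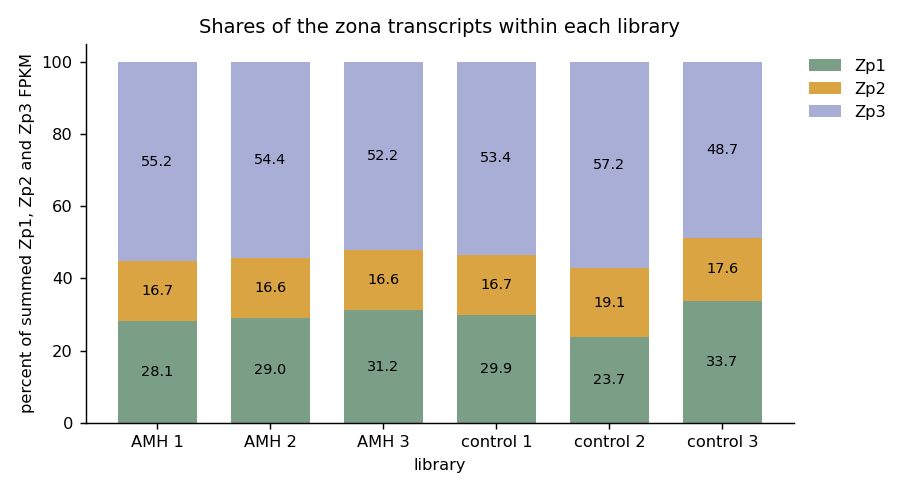
Share of Zp1, Zp2 and Zp3 in their summed FPKM (vertical axis, percent, stacked to 100) in each AMH and control library. Zp3 is the largest share in all 6 libraries, and the Zp1 share of control 2 (23.7%) is the lowest.

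The 3 ratios between members were tested with two-sided exact permutation tests, adjusted over the 3. The Zp3 over Zp2 ratio of FPKM was 3.30, 3.28 and 3.14 in AMH 1, 2 and 3, against 3.20, 3.00 and 2.77 in controls 1, 2 and 3, a log2 difference of 0.12 ± 0.06 (SE, n = 3 each, exact p = 0.2, adjusted 0.6). The Zp1 over Zp2 ratio was 1.68, 1.75 and 1.87 in AMH libraries, against 1.79, 1.24 and 1.92 in controls (log2 difference 0.12 ± 0.20, exact p = 0.9, adjusted 1.0). It was -0.069 without control 2. The Zp1 over Zp3 ratio was 0.509, 0.534 and 0.597 in AMH libraries, against 0.56, 0.414 and 0.693 in controls (log2 difference 0.005 ± 0.23, exact p = 1.0, adjusted 1.0), and the difference was -0.19 without control 2, 0.18 without control 3 and -0.06 without AMH 3. Such p-values do not show that the ratios are alike, since the standard errors of both Zp1 ratios allow differences of some size either way. The gene length in the files is 1.22 times the longest coding transcript for Zp2, 1.01 times for Zp1 and 1.00 times for Zp3, and on transcript length the Zp1 over Zp2 ratio of control 2 was 1.03.

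Among known regulators of zona gene transcription, 8 of 9 listed genes were tested, and 7 had a negative and 1 a positive log2 fold change (median -0.65 by TMM and 0.06 once scaled to the oocyte list, against -0.01 and 0.72 for all tested genes). Members past edgeR's test numbered 0, and 6 of 8 had an unadjusted p under 0.05 with lower values, as did 17.3% of all tested genes. Figla had 1.10, 1.03 and 0.824 CPM in AMH 1, 2 and 3, against 2.20, 3.62 and 1.71 CPM in controls 1, 2 and 3. As for the zona genes, the groups did not overlap and control 2 was highest, at a log2 fold change of -1.35 ± 0.38 (SE, edgeR adjusted p = 0.116) and a total of 222 and 487 counts over the AMH and control libraries. Nobox, an oocyte homeobox factor, had 39.9, 48.7 and 62.6 CPM in AMH 1, 2 and 3, against 83.0, 128 and 59.4 CPM in controls 1, 2 and 3, with overlap between AMH 3 and control 3. Sohlh2, a germ cell helix-loop-helix factor, had 19.9 ± 5.03 CPM in AMH and 33.0 ± 5.15 CPM in control libraries, and Taf4b, a TFIID subunit of germ cells, 58.1 ± 6.67 and 76.9 ± 6.53 CPM (SD, n = 3 each). Tcf3, which pairs with FIGLA on E-boxes, differed least, at a log2 fold change of -0.17 ± 0.13 (SE).

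Genes that cut, process or glycosylate zona proteins did not share a direction. All 11 were tested, with 4 negative and 7 positive log2 fold changes, a median of 0.19 (0.85 once scaled to the oocyte list), and 0 past the test. Astl, which encodes ovastacin, had 520.5, 467 and 943 CPM in AMH 1, 2 and 3, against 1086, 1143 and 925 CPM in controls 1, 2 and 3. AMH 3 lay above control 3, and control 2 did not stand apart. Furin, a proprotein convertase, had 190, 106 and 738 CPM in AMH 1, 2 and 3, against 450, 433 and 762 CPM in controls 1, 2 and 3. Pcsk5, another convertase, had 595, 449 and 349 CPM in AMH 1, 2 and 3, against 79.2, 22.4 and 382 CPM in controls 1, 2 and 3, where control 3 was high as for the cumulus markers. Ovgp1, the oviduct glycoprotein that coats ovulated eggs and one of the oviduct markers, had 379, 163 and 31.8 CPM in AMH 1, 2 and 3, against 16.6, 2.52 and 21.8 CPM in controls 1, 2 and 3 (edgeR adjusted p = 0.116), and the part of oviduct material in it was not tested.

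Of 13 other genes related by the ZP domain, 9 were tested, with 4 negative and 5 positive log2 fold changes (median 0.14, or 0.76 once scaled to the oocyte list) and 0 past the test. The pseudogene Zp4-ps had 0.628, 0.863 and 0.885 CPM in AMH 1, 2 and 3, against 1.5, 2.65 and 1.27 CPM in controls 1, 2 and 3. Umodl1, an uromodulin-like gene, had 33.4, 36.3 and 44.7 CPM in AMH 1, 2 and 3, against 68.4, 119 and 52.2 CPM in controls 1, 2 and 3. Both had control 2 highest and every AMH library below every control. Of the 9 tested genes of this list 4 lay in that position, as did 23.3% of all tested genes. In 1 of the 9 every AMH library lay above every control, as in 5080 of 18868 tested genes. Tgfbr3 (betaglycan, a co-receptor of the TGF-beta family) had a log2 fold change of -0.37 ± 0.16 and Dmbt1 (a secreted scavenger-receptor protein) of 1.48 ± 0.75 (SE). Of 4 sperm proteins that bind the zona, Zp3r had 0.962 ± 0.295 CPM in AMH and 2.66 ± 0.692 CPM in control libraries (SD, n = 3 each, edgeR adjusted p = 0.116). Zpbp and Zpbp2 stayed below 1 CPM on average in both groups, and Zan had 0 counts in all libraries.

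**Figure D5:**
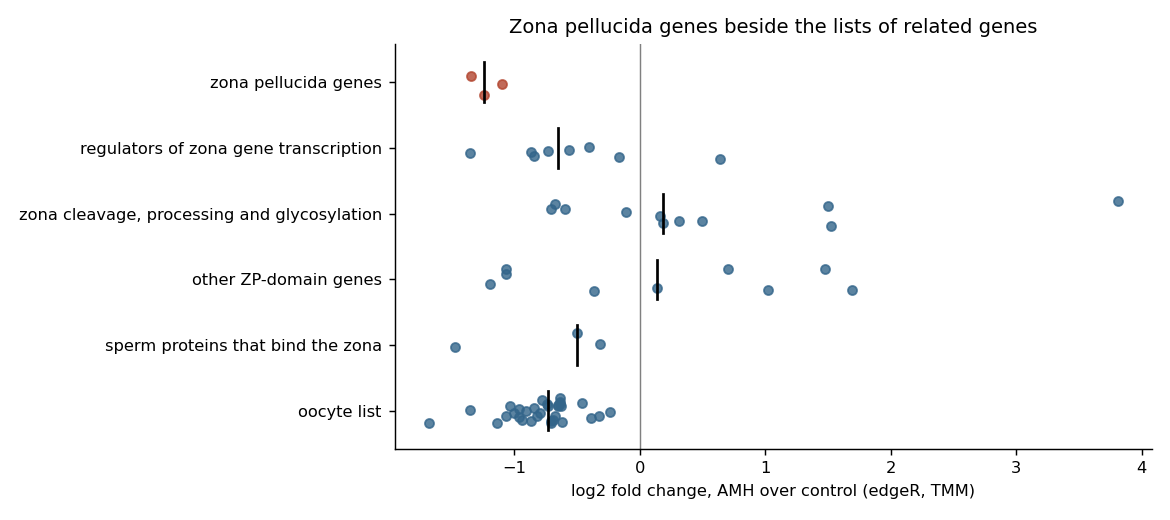
Log2 fold change of AMH over control (horizontal axis, edgeR with TMM) of each tested gene in the zona pellucida genes, the 4 lists of related genes and the oocyte list; the vertical bar is the list's median and vertical scatter within a row carries no value. The oocyte list has 32 of 32 tested genes below 0, with a median of -0.73, while the processing and ZP-domain lists lie on both sides of 0.

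The oocyte list as a whole had a median log2 fold change of -0.73 with TMM, with 32 of 32 tested genes negative and 0 past edgeR's test. Zp1, Zp2 and Zp3 at -1.10, -1.34 and -1.24 were thus below that median. Gdf9 had 7061 ± 2706 CPM in AMH and 11087 ± 956 CPM in control libraries, Bmp15 1294 ± 373 and 2154 ± 281.5 CPM, and Kit, the receptor for Kit ligand, 345.5 ± 97.0 and 572.5 ± 53.7 CPM (SD, n = 3 each). The difference between the zona genes and this list was not tested in edgeR other than by the oocyte-list scaling above. With that scaling 0 of 18868 tested genes passed in either direction, the 3 members among them. It therefore does not show that the zona genes changed as the list did.

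The profile of each member over the 6 libraries was compared with that of 10159 protein-coding genes of at least 5 CPM on average, by the root mean square difference of centred log2 CPM. This is a description over 6 libraries, which differ in the oocyte and cumulus marker sums given above. Zp2 and Zp3 were close to each other, at 0.087, and farther from Zp1, at 0.209 and 0.226. Nearest to Zp3 was Fcgbp (0.064), which had 3.25, 3.11 and 4.41 CPM in AMH 1, 2 and 3, against 6.31, 13.3 and 4.41 CPM in controls 1, 2 and 3. It was followed by Fbxw13, Pin1rt1, Ninj2 and Henmt1 (0.112 to 0.125). Nearest to Zp2 was Padi6 (0.124), a deiminase of the egg cytoplasmic lattices. It averaged 291 ± 77.0 CPM in AMH libraries and 642 ± 323 CPM in controls (SD, n = 3 each). It was followed by Pin1rt1, Fcgbp, Fbxw13 and Henmt1 (0.130 to 0.142). Nearest to Zp1 were Gm3286 (0.082), the DNA methylation cofactor Dnmt3l (0.113), the oocyte connexin gene Gja4 (0.116), Lypd3 (0.117) and Fbxw21 (0.118). Fbxw13 and Fbxw21 belong to a family of similar oocyte F-box genes, and whether they share reads with relatives was not tested.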

How the data were processed

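Whole-number counts per Ensembl gene and FPKM values were deposited by the authors, with 1 column per library. The submitters' processing notes list HISAT2 2.0.5, featureCounts 1.5.0-p3, DESeq2 1.20.0, GRCm38 and mm10. What each tool was used for, and any filter or strand option, is not given in the sources read. The deposited FPKM equalled count over gene length over 1 effective size per library (1.05 to 1.18 of the total in AMH and 0.924 to 0.997 in control libraries), to within 1.34e-05 percent.

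Counts were tested with edgeR 4.0.16 (R 4.3.3; robust quasi-likelihood, TMM, filterByExpr, group alone), with Benjamini-Hochberg adjustment over all genes at 0.05. Standard errors come from the F statistic. Alternatives were DESeq2 1.42.0, limma 3.58.1 (voom, voom with quality weights, and log2(FPKM + 1) or log2(FPKM + 0.1)), changes of scaling and filter, a block for the replicate number, and each library left out. Ratios used FPKM and exact permutation over libraries. edgeR, DESeq2, voom without quality weights and limma on log2 values were also run on simulated counts, which had no shift in library make-up. The permutation tests, the oocyte-list scaling and the quality weights were not part of that run, and no result rests on it.

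The members and gene lists were chosen with earlier results of these data known. Named genes are the 3 of highest CPM and the 2 of smallest p in each of the 4 lists of genes related to the zona, then Figla, Astl, Gdf9, Bmp15 and Kit, and the 5 profiles nearest to each member (log2 CPM, prior count 2); a few others, such as Khdc3, were named after their values were seen.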

Additional observations from a re-analysis of the deposited data

How the results depend on the processing

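Zp1, Zp2 and Zp3 had a negative log2 fold change under all 19 alternatives run. They passed with DESeq2 (-1.09, -1.33 and -1.23) and with limma-voom with quality weights (-1.17, -1.17 and -1.12), and the cause was not tested. With 1 library left out the fold changes ran from -1.43 to -0.79 for Zp1, from -1.62 to -0.74 for Zp2 and from -1.54 to -0.64 for Zp3, and 3 of 3 passed without control 3. Genes called numbered 0 in edgeR, 4535 with DESeq2, 14130 with quality weights, and 0 to 7513 with 1 library left out (7513 without control 3, 1607 without AMH 3). The median of all genes was 0.26 with library size only and -0.23 with upper-quartile scaling, where the members had -0.84, -1.08 and -0.97 and -1.34, -1.60 and -1.50. With 1 library left out the log2 ratio differences ran from -0.069 to 0.245 (Zp1 over Zp2), 0.07 to 0.17 (Zp3 over Zp2) and -0.19 to 0.18 (Zp1 over Zp3), so both Zp1 ratios reversed. With the replicate number as a block the fold changes were -1.09, -1.21 and -1.10 (edgeR adjusted p = 0.200 for each). The mean ratio differences over same-numbered pairs (0.12, 0.12 and 0.005) equal the unpaired ones by arithmetic, so they are no check of the pairing. The replicate numbers are not known to pair the libraries: deviations of same-numbered libraries correlated at 0.06, -0.10 and -0.25. Depth gave a counting error of at most 1.61% for a member's value, so the 3 libraries a group limit the precision.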

Other observations

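The genes next to the members, 4728 to 6176 bases away without overlap, did not share 1 direction. Prpf19 beside Zp1 had 61.2 ± 21.3 CPM in AMH and 45.7 ± 12.9 CPM in control libraries, and Tmem159 beside Zp2 had 19.6 ± 3.60 and 11.0 ± 3.93 CPM (SD, n = 3 each). Beside Zp3, Ssc4d had 14.8 ± 3.66 CPM in AMH and 23.6 ± 4.29 CPM in control libraries, and Dtx2, downstream on the same strand, had 887 ± 199 and 1349 ± 167 CPM. edgeR called 0 of these 4 genes, and control 2 was the highest control for 3 of them. Prpf19 had 51.5, 54.7 and 30.9 CPM in controls 1, 2 and 3, Ssc4d had 24.1, 27.7 and 19.1 CPM, and Dtx2 had 1421, 1468 and 1158 CPM. Tmem159 had 10.6, 7.36 and 15.2 CPM in controls 1, 2 and 3.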
